A study of Rattus norvegicus with 6 samples.

Results

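Very long genes were examined in polyA-selected mRNA of cortical neural progenitors of the rat. They were taken as the rows of the deposited gene tables that span at least 300000 bp of the rn6 genome from the first to the last base. Of 17524 rows listed with the same position in all 4 tables, 496 met this length and 17028 were shorter. The cells were grown from cortices of embryonic day 14 Sprague Dawley rats and carried no genetic change. They were kept with bFGF and EGF and collected after the second passage, and no treated or control group exists. There were 2 biological replicates, A and B, each with 2 technical RNA-seq libraries, A1, A2, B1 and B2, and the Start-seq samples (2) were not used here. Levels are FPKM, fragments scaled to the length of the mature transcript and the depth of the library, so that the span of a gene does not enter the scale. Values of A and B are means of their libraries, and errors are the SD over A and B (n = 2), whose separate animals the labels do not state.

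A very long gene is mostly intron, and its mature mRNA can be as short as that of other genes. RNA polymerase II needs hours to cross such a gene, and for the longest genes this is a large part of a short division cycle. In the brain, very long genes are known for encoding proteins of synapses, axon guidance, ion channels and cell adhesion, and several coincide with common fragile sites, where chromosomes break under replication stress.

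Many of the 496 rows were not long genes. The span of each row was set beside the length of the gene of the same name in the newer rat assembly GRCr8. In 361 rows (72.8%) the GRCr8 gene reached at least 50% of the span, and these are called matched members. In 126 rows (25.4%) it was shorter, and these are called joined rows, because in 103 of them it was under 0.1 of the span and 81 held a whole other row on the same strand. The other 9 rows had no length in GRCr8. Of the matched members, 251 (69.5%) had a GRCr8 length of 0.9 to 1.1 of the span, and 341 had one of at least 300000 bp. Below that length were, among others, *Ube2e2* (277665 bp), *Adamts12* (294742 bp) and *Itga8* (197495 bp). The joined row of *St6galnac3* had a GRCr8 length above it, 515349 bp. Among shorter rows with a length, 98.2% reached 50% of the span. *Mir484*, a microRNA gene whose rows differ between the tables, is an example. It was listed as 1 row of 880639 bp in 3 of the tables and as 2 rows of 76 bp, 1 at each end of that span, in the fourth. Ribosomal protein genes were among the joined rows. *Rpl7a* was listed as chr3:4867233-5461627, a span of 594395 bp that holds the whole rows of *Surf6*, *Gbgt1* and *Abo2*. This division was chosen after the spans had been seen, and 10 rows lie between 0.4 and 0.6 of the span, near the limit.

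**Figure D1:**
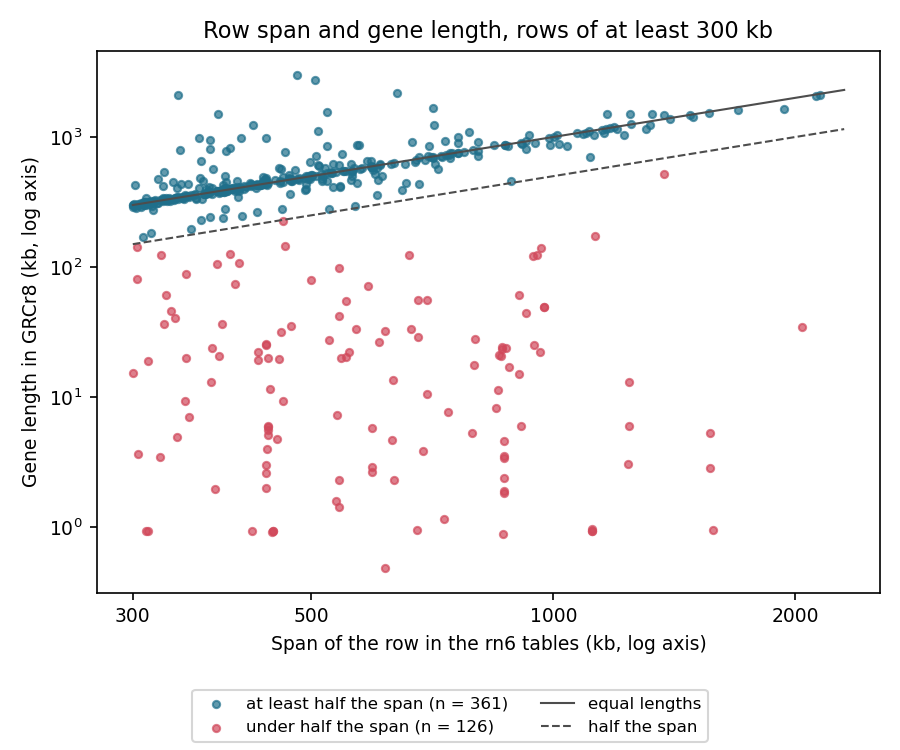
Span of each of 487 rows in the rn6 tables (x axis, kb, log scale) and length of the gene of the same name in GRCr8 (y axis, kb, log scale), 1 point for each row. Most of the 361 matched members lie near the line of equal lengths, and the 126 joined rows lie below the dashed line at 50% of the span, many of them far below it.

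A further 65 rows of at least 300000 bp were not listed alike in the 4 tables and were left out. They belong to 62 gene names, of which 26 are olfactory receptor genes and 5 microRNA genes, and none of these names has a row among the 496. Near the limit, *Ankrd44* was the shortest matched member at 300229 bp (3.09 FPKM in A and 4.58 in B), and the joined row of *Prph2* (300244 bp) was at 0 in both. Just outside were *Ndst4* at 299901 bp (0.0104 FPKM in A and 0.0268 in B) and *Atg10* at 299339 bp (3.37 and 3.58).

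The matched members lay on 21 chromosomes, with 37 on chromosome 4, 32 on chromosome 1 and 10 on chromosome X. Their median span was 438742 bp, with quartiles at 364951 and 600698 bp, and 32 spanned at least 1000000 bp. Overlaps with joined rows were left out, such as that of *Dync1i1* with the joined row of *Col1a2*. Of the 361, 316 then overlapped no other row, 27 overlapped a row on the same strand and 25 a row on the other strand. The counting was not stated to use strand, so reads of overlapping genes cannot be told apart.

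Start regions are shown for 6 matched members, to set the DNA at the start of the highest members beside that of the longest members with almost no mRNA. The sequences are RefSeq promoter windows of GRCr8, from 250 bases before to 50 bases after the annotated gene start, written 5′ to 3′ on the strand of the gene. Capitals mark each CG dinucleotide, which is frequent in CpG island promoters. The first set holds the highest members by FPKM that had exactly 1 window.

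Schip1, chr2:154436967-154437266, plus strand of GRCr8: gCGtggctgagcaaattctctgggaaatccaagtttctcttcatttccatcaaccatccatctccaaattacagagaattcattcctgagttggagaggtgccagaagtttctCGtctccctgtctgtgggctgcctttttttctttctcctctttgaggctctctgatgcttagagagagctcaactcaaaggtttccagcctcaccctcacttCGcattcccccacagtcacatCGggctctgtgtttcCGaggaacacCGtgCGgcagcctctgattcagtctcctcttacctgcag

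Snd1, chr4:58060439-58060738, plus strand of GRCr8: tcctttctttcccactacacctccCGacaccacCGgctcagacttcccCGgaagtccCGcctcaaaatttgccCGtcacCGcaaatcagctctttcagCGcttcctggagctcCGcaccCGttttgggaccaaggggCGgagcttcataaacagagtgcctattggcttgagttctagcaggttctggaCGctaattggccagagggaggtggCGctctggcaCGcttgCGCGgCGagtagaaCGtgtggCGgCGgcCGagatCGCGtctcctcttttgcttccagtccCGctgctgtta

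Camta1, chr5:167639391-167639690, minus strand of GRCr8: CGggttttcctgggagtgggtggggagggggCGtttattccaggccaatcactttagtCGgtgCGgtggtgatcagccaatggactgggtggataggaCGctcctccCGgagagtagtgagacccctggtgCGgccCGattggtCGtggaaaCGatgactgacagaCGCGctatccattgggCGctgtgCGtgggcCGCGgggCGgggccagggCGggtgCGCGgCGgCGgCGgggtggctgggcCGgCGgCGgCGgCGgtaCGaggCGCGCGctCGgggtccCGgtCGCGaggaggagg

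The second set holds the longest members below 0.1 FPKM that had exactly 1 window, a limit chosen after the values were seen.

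Il1rapl2, chrX:105753515-105753814, plus strand of GRCr8: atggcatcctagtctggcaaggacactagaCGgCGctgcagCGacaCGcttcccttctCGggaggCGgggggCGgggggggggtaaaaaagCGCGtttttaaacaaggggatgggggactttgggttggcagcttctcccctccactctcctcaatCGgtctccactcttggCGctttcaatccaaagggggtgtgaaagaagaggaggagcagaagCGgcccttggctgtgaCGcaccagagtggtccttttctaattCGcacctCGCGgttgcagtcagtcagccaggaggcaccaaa

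Il1rapl1, chrX:56588291-56588590, minus strand of GRCr8: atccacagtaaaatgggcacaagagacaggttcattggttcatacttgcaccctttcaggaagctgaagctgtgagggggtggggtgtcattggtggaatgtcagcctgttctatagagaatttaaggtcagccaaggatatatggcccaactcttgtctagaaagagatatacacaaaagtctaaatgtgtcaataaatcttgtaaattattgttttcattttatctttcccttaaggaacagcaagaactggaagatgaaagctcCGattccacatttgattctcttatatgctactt

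Galntl6, chr16:36204832-36205131, plus strand of GRCr8: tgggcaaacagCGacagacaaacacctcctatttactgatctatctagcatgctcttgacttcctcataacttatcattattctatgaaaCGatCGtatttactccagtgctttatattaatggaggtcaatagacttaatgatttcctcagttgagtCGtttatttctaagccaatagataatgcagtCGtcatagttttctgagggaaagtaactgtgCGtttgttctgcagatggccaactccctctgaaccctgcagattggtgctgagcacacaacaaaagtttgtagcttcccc

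The highest members held 7 CG in the window of *Schip1*, 23 in that of *Snd1* and 36 in that of *Camta1*. The low members held 16 CG in *Il1rapl2*, 1 in *Il1rapl1* and 6 in *Galntl6*. The sets overlapped, since the window of *Il1rapl2* held more CG than that of *Schip1*. Across all 33469 windows of this length the median was 7 CG, with quartiles at 3 and 19. The letters TATAAA, searched on both strands, were found in the window of *Galntl6* and in 14.2% of all windows. Only 262 of 361 matched members (72.6%) had a window, too few to describe the members as a whole. *Schip1* lies on the minus strand in rn6 and on the plus strand in GRCr8, and whether its window is the start used in these cells was not examined.

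Most very long genes had polyA mRNA at low to moderate levels. Of the 361 matched members, 218 (60.4%) had a mean of at least 1 FPKM, with 211 in replicate A and 215 in replicate B. The same share was 60.3% among shorter rows. At 10 FPKM the shares parted, with 61 matched members (16.9%) against 38.6% of shorter rows, and they did so in each replicate (16.3% in A and 15.8% in B against 38.2% and 38.4%). Only *Ntrk2* of the matched members had a mean of at least 100 FPKM, where 6.19% of shorter rows did. The middle range held the difference, since 157 matched members (43.5%) lay between 1 and 10 FPKM against 21.7% of shorter rows. That share was higher in the longer of these rows, at 29.9% from 30000 to 100000 bp and 36.6% from 100000 to 300000 bp. At the low end, 50 matched members (13.9%) lay below 0.1 FPKM against 28.5% of shorter rows. Rows under 1000 bp carry much of the latter share, with 85.4% below 0.1 FPKM, and it was 15.9% from 30000 to 100000 bp and 17.1% from 100000 to 300000 bp. No p is given for these shares, since all genes come from the same libraries and are not replicates.

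Nearly every very long gene had some reads. A value above 0 was found in at least 1 library for 360 of 361 matched members (99.7%) and in all 4 for 342 (94.7%), against 86.1% and 73.8% of shorter rows. From 100000 to 300000 bp these shares were 95.2% and 86.6%, and under 1000 bp they were 33.4% and 13.6%. *Cntnap5a*, a contactin-associated protein, was the only matched member listed at 0 in every library. Library B2 was the shallowest, with 6.83 units of mean read depth for 1 FPKM against 22.7 to 24.4 in the others, and it had 345 matched members above 0 where the others had 353 to 358.

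The median of the matched members was 1.92 FPKM (1.82 in A and 1.81 in B), and that of shorter rows was 3.92 (3.65 in A and 3.86 in B). The upper quartile was 5.85 FPKM for matched members and 23.1 for shorter rows. The joined rows differed from the matched members in the other direction, with a median of 6.34 FPKM and 55 of 126 (43.7%) at 10 FPKM or more. They supplied 14 of the 15 members with a mean of at least 100 FPKM, led by *Rpl7a* at 1620 ± 156 FPKM, while 26 of them, 11 olfactory receptor genes included, were at 0 in every library. With joined rows left in, the median of all 496 members was 2.26 FPKM (2.10 in A and 2.20 in B), 301 (60.7%) had at least 1 FPKM and 118 (23.8%) at least 10. The matched members held 0.340% of all FPKM in A and 0.322% in B, and the joined rows held 1.47% and 1.59%.

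The comparison with shorter rows depended on which shorter rows were used. Among rows under 1000 bp, which include single-exon and microRNA genes, 7.89% had at least 1 FPKM. The share was 59.7% from 1000 to 10000 bp, 71.4% from 10000 to 30000 bp, 71.6% from 30000 to 100000 bp and 68.4% from 100000 to 300000 bp. Among matched members it was 68.5% of 143 from 300000 to 400000 bp, 55.1% of 127 from 400000 to 600000 bp, 59.3% of 59 from 600000 to 1000000 bp and 46.9% of 32 above that. The 300000 bp limit thus marked no step at 1 FPKM. The share at 10 FPKM was 48.1% from 10000 to 30000 bp, 31.8% from 100000 to 300000 bp and 18.9% from 300000 to 400000 bp, and it was 9.38% at 1000000 bp or more. The median was 9.10 FPKM from 10000 to 30000 bp, 3.90 from 100000 to 300000 bp, 2.88 from 300000 to 400000 bp and 0.790 at 1000000 bp or more.

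**Figure D2:**
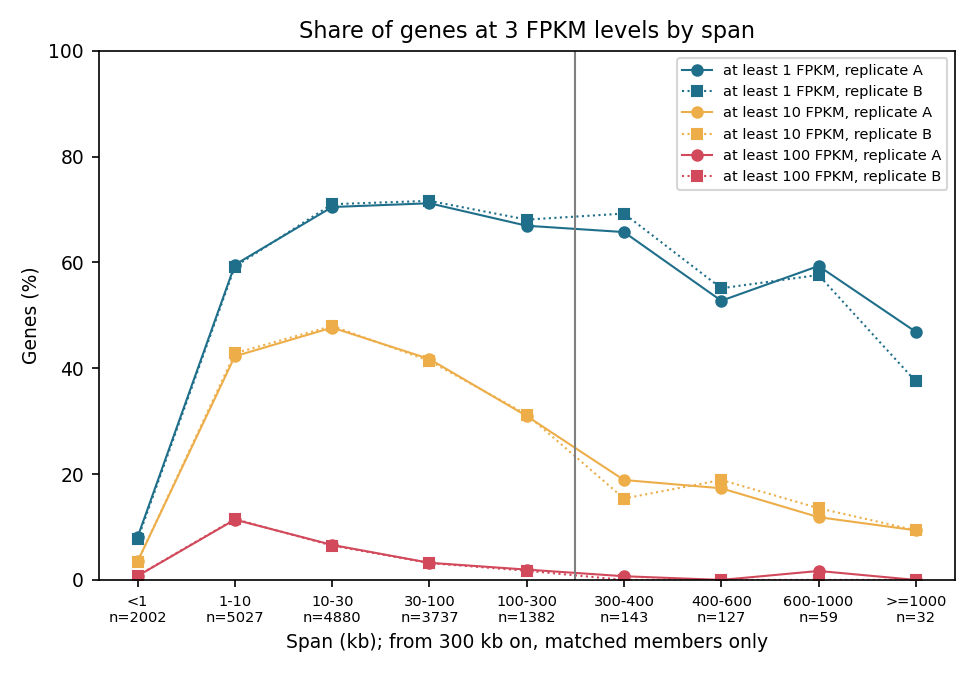
Share of genes (y axis, %) with at least 1, 10 and 100 FPKM by span (x axis, kb, with the number of genes), for replicate A (circles, solid lines) and replicate B (squares, dotted lines). Right of the vertical line the points hold matched members only. The share at 10 FPKM falls from 47.7% (A) and 48.0% (B) at 10 to 30 kb to 9.38% in both at 1000 kb or more.

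Within the matched members the relation of rn6 span to level was weak, and that of GRCr8 length was not tested. The Spearman correlation across 361 genes was -0.17 (-0.15 in A and -0.18 in B), a description over genes that share their libraries. Over all 496 members, joined rows included, it was -0.030, and over all 17524 rows it was 0.23, the opposite sign. The technical libraries ranked the matched members almost alike, with 0.996 for the pair of A and 0.975 for the pair of B, and libraries of different replicates gave 0.954 to 0.958.

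The highest matched member by FPKM was *Ntrk2*, which encodes TrkB, the receptor for brain-derived neurotrophic factor (minus strand, chr17:5934690-6244627, 309938 bp). It was at 130 and 150 FPKM in A1 and A2 and at 80.8 and 76.8 in B1 and B2, a mean of 109 ± 43.2. Both libraries of A lay above both of B. The rank of *Ntrk2* holds by FPKM only. Its mean read depth was 365 in A1 and 393 in A2, below 2347 and 2394 in *Schip1*. *Schip1*, which encodes a schwannomin-interacting protein (minus strand, chr2:172312290-173087236, 774947 bp), followed with 96.5 and 105 FPKM in A and 62.0 and 66.1 in B (82.5 ± 26.1). Its libraries did not overlap either, with A again the higher.

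*Snd1*, a nuclease and RNA-binding protein of the staphylococcal nuclease family (plus strand, chr4:55772377-56171669, 399293 bp), was at 46.2 and 52.2 FPKM in A and 55.0 and 61.2 in B (53.6 ± 6.29). The whole row of *Lrrc4*, a synaptic adhesion gene, lies within its span. *Ppp2r2b*, a regulatory subunit of protein phosphatase 2A (minus strand, chr18:36985709-37421383, 435675 bp), was at 49.6 and 54.6 FPKM in A and 58.9 and 45.2 in B. Its replicate means were 52.1 in both, with the libraries of B outside those of A on either side. *Camta1*, a calmodulin-binding transcription activator (minus strand, chr5:168138207-169017295, 879089 bp), was at 52.2 and 56.2 FPKM in A and 44.6 and 41.2 in B (48.6 ± 7.96). Its mean read depth was 79.0 in A1 and 68.2 in A2, against 1123 and 1186 in *Snd1*. Why read depth and FPKM differ in *Ntrk2* and *Camta1* was not tested.

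The other high members include genes with known roles in neural precursors. *Nfia*, a nuclear factor I protein that acts in the switch of progenitors to gliogenesis (plus strand, chr5:116421898-116750381), was at 41.9 and 40.0 FPKM in A and 33.3 and 45.8 in B (40.2 ± 1.02). *Zfp423*, a zinc finger protein needed for cerebellar and forebrain midline development, was at 37.1 ± 3.15 FPKM, and the ubiquitin-conjugating enzyme gene *Ube2e2* was at 39.3 ± 2.03. The libraries of A and B overlapped in *Nfia* and *Ube2e2*, and those of B lay just above those of A in *Zfp423*. *Macf1*, which links microtubules to actin, was at 35.5 and 39.4 FPKM in A and 16.5 and 27.4 in B (a mean of 29.7), with both libraries of A above both of B. *Gpc3*, the tenth, is described with the differences between the replicates.

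**Figure D3:**
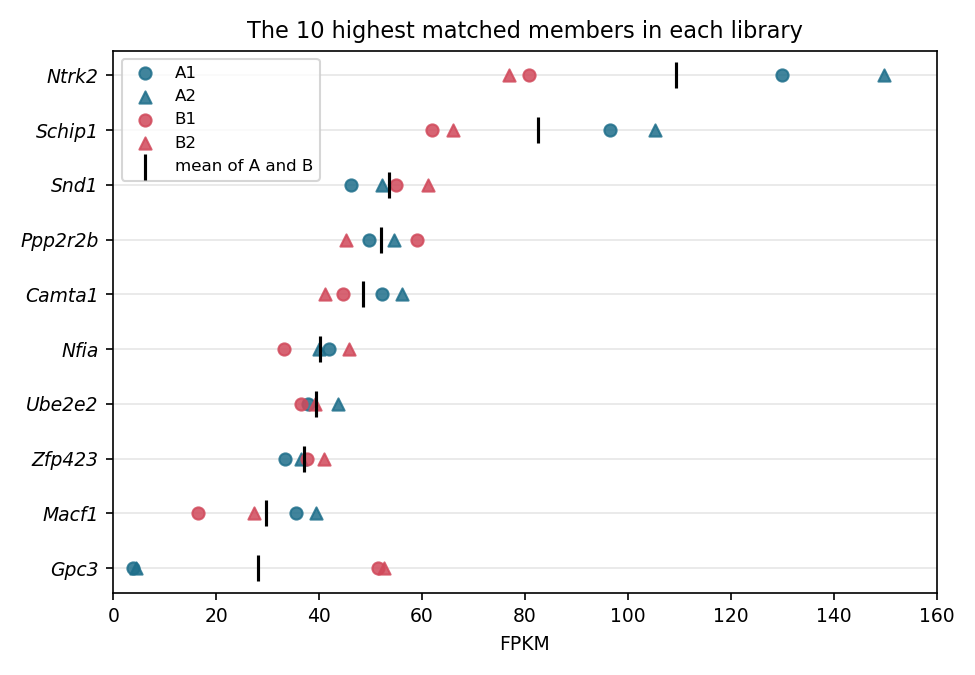
FPKM (x axis) of the 10 matched members with the highest mean, with 1 point for each library (A1 and A2 blue, B1 and B2 red) and a bar for the mean of A and B. *Ntrk2* lies between 76.8 and 150 FPKM, and *Gpc3* has means of 4.18 FPKM in A and 52.0 in B.

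Of the 5 longest matched members by rn6 span, 3 were below 1 FPKM in every library. Some members with shorter rows have a GRCr8 length above the span of *Lrp1b*. Among these are *Tenm4* (2974940 bp, 0.830 FPKM), *Tenm3* (2726620 bp, 17.1 FPKM) and *Lsamp* (2169740 bp, 20.6 FPKM). *Lrp1b*, a low-density lipoprotein receptor family member and the longest row of the set (minus strand, chr3:25201194-27348126, 2146933 bp), was at 0.0225 and 0.0204 FPKM in A and 0.00755 and 0.00600 in B. *Dlg2*, the synaptic scaffold PSD-93 (plus strand, chr1:155147804-157269740, 2121937 bp), was at 0.160 and 0.135 in A and 0.217 and 0.176 in B. *Nrxn3*, a presynaptic neurexin (plus strand, chr6:112133204-114067564, 1934361 bp), stood above them with 2.06 and 3.15 FPKM in A and 1.65 and 2.55 in B. *Csmd1*, a large CUB and sushi domain protein (1697400 bp), was at 1.18 and 1.31 FPKM in A and 0.643 and 0.924 in B. *Il1rapl2*, a synaptic adhesion receptor (1564040 bp), was at 0.00742 and 0.0284 FPKM in A and 0.0231 and 0 in B. Values of this size rest on very few reads.

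Levels varied widely among the 32 matched members of at least 1000000 bp, of which 15 had at least 1 FPKM, 9 lay between 0.1 and 1 FPKM and 8 below 0.1. The alpha-N-catenin gene *Ctnna2* (1162053 bp) was at 8.02 and 9.93 FPKM in A and 11.4 and 19.5 in B. T-cadherin, encoded by *Cdh13* (1122822 bp), was at 10.6 and 11.8 FPKM in A and 14.0 and 12.4 in B. *Fhit*, a diadenosine triphosphate hydrolase gene at a well-known fragile site (1165584 bp), was at 11.3 and 13.5 FPKM in A and 11.6 in both libraries of B. The libraries of A and B overlapped in *Fhit*, and both libraries of B lay above both of A in *Ctnna2* and *Cdh13*.

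The matched members were grouped into 20 lists by what their proteins do, except for the list of common fragile site genes, which is set by chromosome breakage and repeats genes of other lists. The lists cover 263 of the 361 members, and their counts describe these members and are not a test. The median of the shorter genes of each list is given beside that of the members, and it was the lower of the pair in 6 of the 20 lists. Medians are of the means of A and B, and those within each replicate could differ. In receptor tyrosine kinase and growth factor genes they were 0.780 in A and 1.46 in B, and in transcription factors 1.20 and 2.13. In other lists B was the lower, as in synaptic vesicle release and scaffold genes (0.711 and 0.591).

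The lists of ion channels and transmitter receptors had medians below 1 FPKM. Of 21 ion channel genes and their partners, 5 reached 1 FPKM and the median was 0.247, against 11 of 21 shorter ones and a median of 1.13. *Dpp6*, a partner of Kv4 potassium channels, led with 4.20 FPKM, and *Cacna1c*, an L-type calcium channel subunit, followed at 3.58. Of 13 glutamate receptor genes, 6 reached 1 FPKM (median 0.916 against 0.644 in 7 shorter ones), led by the kainate receptor genes *Grik4* at 7.96 and *Grik2* at 3.65, and *Grin2a*, an NMDA receptor subunit, was at 0.00727. Of 5 genes in the list of other transmitter receptors, which also holds the intracellular calcium release channel *Ryr2*, 2 reached 1 FPKM (median 0.515 against 0.0789 in 18 shorter ones). These were *Gabrb1* at 4.15 and *Gabbr2* at 2.51, both receptors for GABA. Among the receptors, unlike the channels, the shorter genes thus had the lower medians.

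Synaptic proteins were mixed. Of 15 genes of vesicle release and the synaptic scaffold, 6 reached 1 FPKM (median 0.772 against 1.41 in 28 shorter ones), led by *Dlgap1* at 6.29 FPKM. The vesicle calcium sensor *Syt1* was at 2.37 and 2.47 FPKM in A and 1.13 and 1.07 in B. Of 21 synaptic adhesion genes, 9 reached 1 FPKM (median 0.742), against 8 of 12 shorter ones (median 5.10). Within this list the range was wide. *Ctnnd2*, delta-catenin, was at 24.7 ± 6.52 FPKM and the teneurin *Tenm3* at 17.1, while *Cntnap5a*, *Cntnap5b*, *Cntnap5c*, *Il1rapl1* and *Il1rapl2* were all below 0.1.

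Immunoglobulin adhesion and axon guidance genes had higher medians. Of 12 genes in the list of contactins, IgLON and other immunoglobulin adhesion proteins, 9 reached 1 FPKM, with a median of 3.84 against 3.43 in 9 shorter ones. The contactins were low, with *Cntn4* at 0.299 FPKM, *Cntn6* at 0.0676 and *Cntn5* at 0.0170. The limbic system-associated membrane protein gene *Lsamp* was at 19.2 and 20.7 FPKM in A and 24.9 and 17.5 in B, and neurotrimin, encoded by *Ntm*, at 19.8 and 20.6 in A and 12.5 and 10.1 in B. Of 13 axon guidance genes, 10 reached 1 FPKM (median 3.52 against 5.14 in 20 shorter ones), with the ephrin receptor *Ephb1* at 14.7 FPKM and the Slit receptor *Robo1* at 10.7. The netrin receptor *Dcc* was below this, at 0.765 and 0.893 FPKM in A and 0.186 and 0.436 in B. Of 8 cadherin genes, 4 reached 1 FPKM (median 0.863 against 5.93 in 12 shorter ones). Of 5 protein tyrosine phosphatase genes, 4 did (median 3.54 against 1.01 in 8 shorter ones), led by *Ptprk* at 8.97 and *Ptprm* at 7.62.

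By the mean of A and B, the 2 highest medians were of lists of intracellular proteins. Within each replicate the protein tyrosine phosphatase list (4.43 in A and 4.33 in B) stood above that of kinases, phosphatases and scaffolds (3.82 and 4.03). Of 28 kinase, phosphatase and scaffold genes, 22 reached 1 FPKM, with a median of 3.96 against 5.78 in 35 shorter ones. The polarity protein gene *Pard3* was at 12.1 and 12.9 FPKM in A and 13.3 and 16.6 in B, and the junction scaffold *Magi1* at 17.4 and 15.8 in A and 7.90 and 13.0 in B. Of 8 genes in the list of RNA-binding proteins, which also holds the exocyst genes *Exoc6b* and *Exoc4*, 5 reached 1 FPKM (median 5.63 against 8.63 in 22 shorter ones), among them the splicing regulators *Celf2* at 13.2 and *Celf4* at 7.62. Of 25 genes in the list of transcription factors and cofactors, which also holds the microtubule-binding *Nav3* and the focal adhesion protein gene *Lpp*, 15 reached 1 FPKM and none was below 0.1, with a median of 2.01 against 6.75 in 50 shorter ones. Beside *Camta1* and *Nfia* stood *Rere*, an atrophin family corepressor, at 25.3 FPKM and *Tcf12*, an E protein that pairs with proneural factors, at 20.1. Of 17 cytoskeletal genes, 11 reached 1 FPKM (median 1.92 against 9.01 in 31 shorter ones).

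Gephyrin, *Gphn*, was placed in the list of mitochondrial, metabolic and transport genes and not in that of the synaptic scaffold. Among the remaining lists, 18 of these 28 genes reached 1 FPKM (median 2.97 against 1.77 in 44 shorter ones). They were led by the potassium-dependent sodium-calcium exchanger *Slc24a3* at 27.1 and *Gphn* at 22.6. Of 7 receptor tyrosine kinase and growth factor genes, 5 did (median 1.40 against 2.48 in 21 shorter ones), and *Ntrk3*, the receptor for neurotrophin-3, stood at 7.22 below *Ntrk2*. Of 10 genes in the extracellular matrix list, which also holds the integrin *Itga8*, 5 did (median 2.44 against 7.59 in 42 shorter ones). Among them *Reln*, the secreted guide of neuronal layering, was at 5.04 and 5.26 FPKM in A and 9.21 and 7.38 in B. Of 9 heparan sulfate proteoglycan and glycosyltransferase genes, 4 did (median 0.739 against 2.03 in 30 shorter ones). So did 5 of 8 phosphodiesterase and cyclase genes (median 1.49 against 2.10 in 11 shorter ones) and 5 of 7 genes in the list of lipoprotein, CUB domain and endocytic receptors (median 2.66 against 1.14 in 13 shorter ones), of which *Astn1*, *Astn2*, *Sorcs1*, *Sorcs2* and *Sorcs3* are astrotactins and SorCS receptors. Of 16 common fragile site genes, 11 reached 1 FPKM (median 2.88 against 4.58 in 3 shorter ones), led by *Lsamp*, *Cdh13*, *Fhit* and *Large*. The parkin gene *Park2* was at 1.11 and *Lrp1b* at 0.0141.

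**Figure D4:**
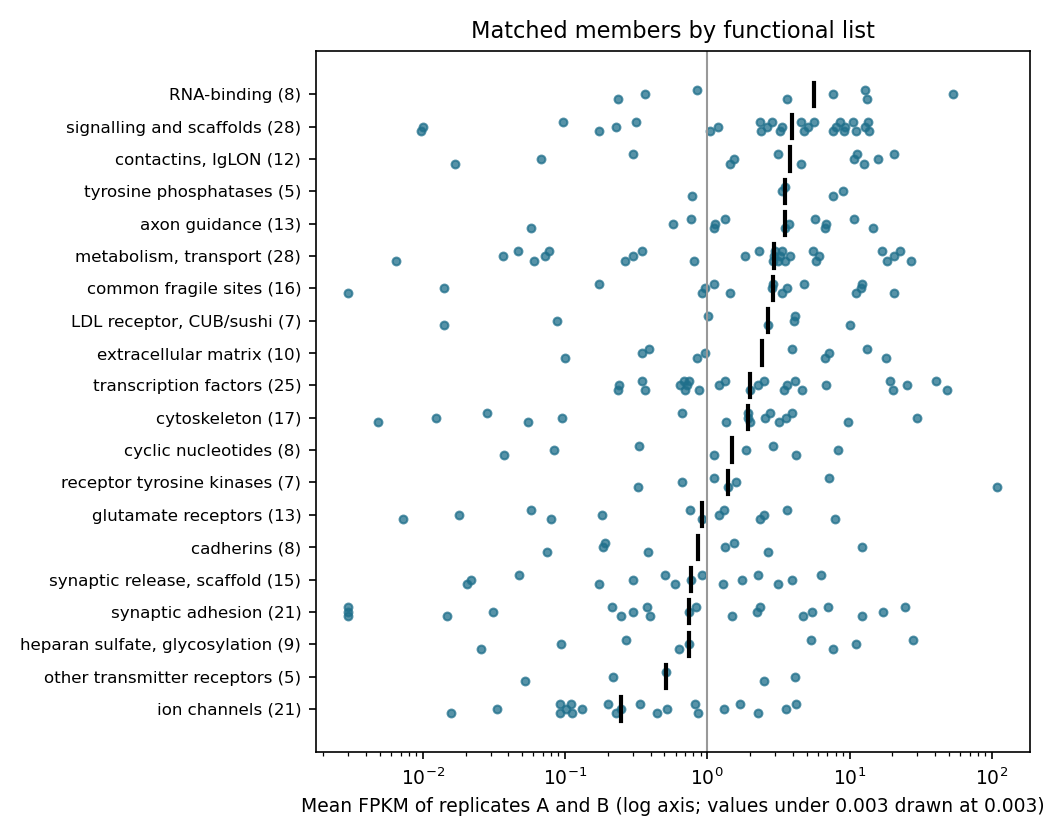
Mean FPKM of replicates A and B (x axis, log scale, values under 0.003 drawn at 0.003) of the matched members in 20 functional lists, with 1 point for each gene and a black bar for the median; the number of genes is in brackets and the grey line is at 1 FPKM. Medians run from 0.247 in ion channels to 5.63 in RNA-binding proteins, and in every list the highest gene is more than 10 times the lowest.

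The biological replicates were then set side by side, which asks how alike the members were in 2 cultures of the same kind. A row was counted as differing when its mean was at least 1 FPKM, log2(FPKM + 1) of the replicates was at least 1 apart, and no library of A fell among those of B. The added 1 makes the change of weakly expressed genes look smaller than it is. With 1 culture on each side this is a description and no test. Of the 10567 rows with that mean, 6.17% were counted, 4.77% as higher in B and 1.4% as higher in A. Of the 218 matched members, 12 (5.50%) were counted, 9 higher in B and 3 higher in A, a share near that of all rows at these settings. Without B2 17 of 215 were counted (10 higher in B and 7 higher in A, 7.91% against 5.47% of all rows), and without B1 19 of 220 (15 and 4, 8.64% against 8.47%). With joined rows left in, 20 of 301 members (6.64%) were counted, 16 higher in B and 4 higher in A. The joined row of *Aldh18a1*, 1 of these 4, was at 0 FPKM in B2 only. The members stood further above all rows at looser settings, with 42 counted (14.0% against 8.58%) when 0.1 was added in place of 1, and 73 counted (24.3% against 16.4%) at a difference of 0.58. Of the 42, 28 were higher in B and 14 higher in A, and of the 73, 39 and 34.

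The median difference between the replicates was larger in very long genes than over all shorter rows. The median absolute difference was 0.34 for matched members and 0.24 for shorter rows on the log2(FPKM + 1) scale. Between the libraries of 1 replicate it was 0.10 against 0.11 in A and 0.27 against 0.22 in B. Between matched members of 300000 to 400000 bp and shorter rows of 100000 to 300000 bp the medians were 0.38 and 0.31, and the latter was itself above that of all shorter rows. Among rows with a mean of 10 to 50 FPKM, where levels are closer, these classes stood the other way (0.25 in 25 members and 0.30 in 367 rows). At that level all matched members were at 0.30 and all shorter rows at 0.22, so the larger difference did not set the members apart from rows of 100000 to 300000 bp. The signed median, B minus A, was 0.05 for matched members and -0.03 for shorter rows.

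*Gpc3*, a heparan sulfate proteoglycan of the glypican family that restrains growth (minus strand, chrX:139579268-139947093, 367826 bp), differed the most. It was at 3.83 and 4.52 FPKM in A and at 51.5 and 52.6 in B, 3.36 higher in B on the log2(FPKM + 1) scale. *Bnc2*, a basonuclin zinc finger protein, was at 0.574 and 0.587 FPKM in A and at 2.79 and 4.10 in B. *Plxdc2*, a plexin domain protein, was at 3.65 and 3.71 in A and at 10.6 and 8.91 in B. *Fhod3*, a formin, was at 1.74 and 1.67 in A and at 5.16 and 4.91 in B, and *Ebf1*, an early B cell factor family transcription factor, at 2.07 and 2.31 in A and at 5.71 and 6.45 in B. The integrin *Itga8*, the Slit ligand *Slit3*, the dynamin *Dnm3* and the matrix protease *Adamts12* were the other 4 counted as higher in B. In all 9 the libraries of A stood apart from those of B, by the way they were counted.

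Higher in A were *Atxn1*, the ataxin-1 gene, at 14.8 and 14.7 FPKM in A and 4.10 and 6.99 in B, and *Fat3*, a giant cadherin, at 3.72 and 4.41 in A and 0.926 and 1.55 in B. The third was *Gpc5*, another glypican (1493708 bp), at 10.3 and 11.0 FPKM in A and 4.07 and 5.19 in B. Thus *Gpc3* and *Gpc5* differed in opposite directions. Nearest to the limit without meeting it were *Ldb2*, a LIM domain-binding cofactor, at 0.535 and 0.566 FPKM in A and 2.24 and 1.96 in B, *Kcnip1*, a potassium channel-interacting protein, with means of 3.32 in A and 1.19 in B, and the receptor gene *Ror1* at 0.676 and 0.569 in A and 1.60 and 2.76 in B.

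Markers of mesenchymal and meningeal cells moved in the same direction as the 9 members. All 16 genes of that list had at least 1 FPKM and were higher in B, and their summed FPKM was 853 and 844 in A1 and A2 and 3051 and 4495 in B1 and B2. *Col1a2* and *Ogn* of this list are joined rows among the 496, *Col1a2* with 143 and 140 FPKM in A and 637 and 798 in B, and *Ogn* with 12.2 and 13.0 in A and 121 and 115 in B. The 12 progenitor markers had at least 1 FPKM each and summed to 21192 and 23277 in A and 10204 and 11007 in B, but 5 of them were higher in B. Most of that sum is *Fabp7*, a fatty acid binding protein of radial glia, at 16800 and 18557 FPKM in A and 6520 and 5485 in B, and the other 11 summed to 4393 and 4719 in A and 3684 and 5521 in B. Oligodendrocyte lineage markers, of which 6 of 10 had at least 1 FPKM, summed to 269 and 294 in A and 706 and 364 in B, and 6 of 10 were higher in B. *Olig1*, a basic helix-loop-helix factor, was at 172 and 195 FPKM in A and 523 and 237 in B, and without it the sums were 97.5 and 99.3 in A and 183 and 127 in B. The 18 neuron markers summed to 246 and 276 in A and 214 and 261 in B, and 6 were higher in B. Of these markers 10 had at least 1 FPKM, with *Neurod1*, *Neurod2*, *Neurod6*, *Tbr1*, *Slc17a6* and *Slc17a7* below it, and none of 15 microglia and endothelium markers did. The latter summed to 1.76 and 2.02 FPKM in A and 4.16 and 7.38 in B, and 12 of the 15 were higher in B. In bulk samples more cells of a type and more RNA in each cell cannot be told apart, and the part of these cells in the differences of the members was not tested.

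**Figure D5:**
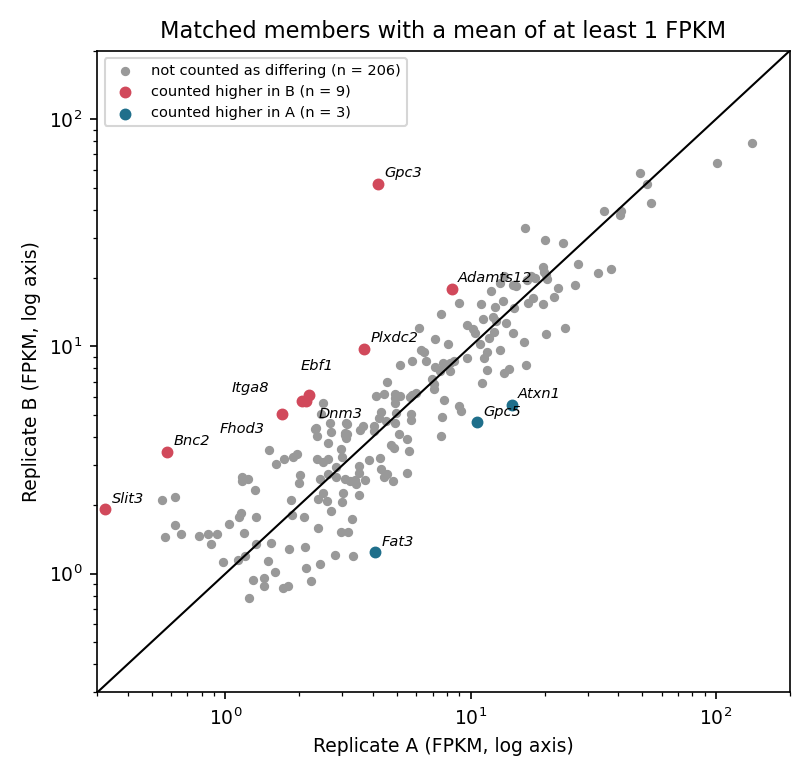
FPKM in replicate A (x axis, log scale) against replicate B (y axis, log scale) of the 218 matched members with a mean of at least 1 FPKM, with the line of equal values. Red points mark the 9 counted as higher in B and blue points the 3 counted as higher in A, and *Gpc3* lies farthest from the line.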

How the data were processed

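Polyadenylated RNA of rat cortical neural progenitors was sequenced by the authors with a NEBNext Ultra II kit and aligned to rn6 with STAR. Per the labels, each of 4 libraries has 1 gene table, in the layout of StringTie. The FPKM and TPM values and the coverage signal (mean read depth, not scaled for library size) were computed by the authors and used as deposited. The methods name Rsubread and DESeq2 for FPKM, the labels' processing notes also name cutadapt and HISAT, and the versions are not given in the sources used here. Total read counts were not used, and the depth of a library was taken as its coverage per FPKM.

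Rows were joined across tables by name, chromosome, strand, start and end, and libraries were averaged within the replicates that the labels give. Matched members were set by GRCr8 gene length from RefSeq, of which no coordinates were carried over to rn6, and promoter windows were read from RefSeq's GRCr8 sequences. The rule for counting rows as differing between A and B was tested on simulated data only. How often it counts rows wrongly in these cultures was not tested. The members, gene lists and alternatives were chosen with earlier results of these data known. Named genes were the 10 highest, the 5 longest, up to 5 counted in each direction, the longest at 0, rows at the limit, and the highest 4 and the longest of each list, over members and matched members; others named for context were chosen after their values were seen, and some genes are not reported here. Alternatives were other thresholds, spans, units, filters, pseudocounts, scaling, shorter genes and left-out libraries. Calculations used Python 3.11.15 with numpy 2.4.6, scipy 1.17.1 and pandas 2.3.3, and plots used matplotlib 3.10.9.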

Additional observations from a re-analysis of the deposited data

Results flagged for a closer look

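In 119 sets of 4 library values, 10 held 1 library that stood apart from the other 3 by Dixon's criterion, of which chance alone gives about 1 in 20. The 4 libraries are technical pairs of 2 cultures and not 4 independent samples, and 5 of the 10 values were of B2, the shallowest library. Its coverage that corresponds to 1 FPKM was 6.83, below the other libraries. Among the genes, *Aldh18a1*, a joined row, was at 0 FPKM in B2 and at 14.1 to 16.0 in the others, so that its count as higher in A rests on B2. *Cacna1c* was at 5.24 FPKM, *Pcdh7* at 2.40 and *Robo1* at 18.4 in B2, each the highest of the 4. In B1, *Grik4* was at 12.4 FPKM, *Nedd4l* at 14.0 and *Hpse2* at 0.0258, each the highest, while the joined row of *Mfap4* was lowest at 366. In A2, *Fhit* was highest at 13.5 FPKM.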

How the results depend on the processing

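The values have 2 cultures, no test and, for low genes, few reads. The share at or above 1 FPKM (60.7% of members) was 81.3% at 0.1 FPKM, 34.1% at 5 FPKM, 60.8% and 60.7% for spans of 200000 and 500000 bp, 67.3% by TPM, 56.1% with FPKM summed by gene name, 60.1% without B2, 59.5% with either replicate left out, 60.4% for matched members and 59.9% with a GRCr8 length of 300000 bp as well. Against shorter rows it was 0.397 percentage points higher, and this small difference changed sign. It was 9.74 at 0.1 FPKM, -13.2 at 5 FPKM, 0.565 at 200000 bp, 4.28 by TPM, -4.51 summed by name, -5.83 without olfactory receptor and microRNA genes, -10.9 against shorter rows of at least 20000 bp, 0.144 without B2, between -0.496 and -0.308 with a replicate left out, 0.0989 for matched members, -0.347 by GRCr8 length and -1.02 with matched rows on both sides.

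The share at or above 10 FPKM (23.8%) was 24.4% and 26.9% at 200000 and 500000 bp, 31.5% by TPM, 22.6% summed by name, 22.8% to 23.6% with a replicate left out, 16.9% for matched members and 16.4% by GRCr8 length. The ratio of the median to that of shorter rows (0.576) was below 1 in every alternative run. It was 0.567 and 0.591 at 200000 and 500000 bp, 0.396 summed by name, 0.374 without olfactory receptor and microRNA genes, 0.350 against shorter rows of at least 20000 bp, 0.570 to 0.574 with a replicate left out, 0.490 for matched members and by GRCr8 length, 0.453 with matched rows on both sides, 0.393 above 1 FPKM and 0.260 there for matched members.

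The count of members differing between A and B (20) was 42 with a pseudocount of 0.1 and 73 at a difference of 0.58. At a mean of 10 FPKM it was 8 (6.78% of members and 4.95% of all rows), and by TPM 29 (8.68% and 6.86%). Without B1 it was 34 (22 higher in B and 12 higher in A, 11.2% of members and 8.47% of all rows). For spans of 200000 and 500000 bp it was 38 (7.48%) and 10 (7.52%), against 6.17% of all rows. For matched members it was 12 (5.50%) and by GRCr8 length 10 (4.88%), against the same 6.17%. With a pseudocount of 0.1 the share over all rows was 8.58% and that over members 14.0%, and at a difference of 0.58 they were 16.4% and 24.3%. The median difference on the log2(FPKM + 1) scale (0.027) was -0.028 at 10 FPKM, 0 without a filter, -6.98e-05 by TPM, -0.018 without B1 and 0.051 for matched members. At spans of 200000 and 500000 bp it was -0.018 and -0.070. The correlation with span (-0.030) was 0.11 above 1 FPKM, -0.17 for matched members and -0.10 for those above 1 FPKM. The cause of these shifts was not tested. The matched members, the count without B1, the added share at 10 FPKM and the difference in shares were chosen after seeing the data. No paired analysis was possible because there is 1 condition.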
